A study of Mus musculus with 6 samples.

Results

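The genes described here encode parts of the Z-disc, the M-band and the costamere of the heart muscle cell. They were 40 named genes, and all 40 were found among the 24972 rows of the deposited table by their symbols. The members were listed by structure and not by their values, though with earlier results of these data known. All 40 were also among the 12477 genes with a mean of at least 10 normalized counts, which were the genes tested.

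The Z-disc is the lateral border of the sarcomere, where alpha-actinin cross-links the actin filaments of neighbouring sarcomeres and the giant protein titin is anchored. Titin runs from there to the M-band, the midline of the sarcomere, where myomesins tie the thick filaments together. Costameres couple the Z-discs to the cell membrane and the surrounding matrix through the dystrophin-glycoprotein complex and through integrins with talin and vinculin. Mutations in many of these genes cause dilated or hypertrophic cardiomyopathy or muscular dystrophy.

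RNA was measured in 6 libraries of cardiomyocytes from MX1gfp mice, a strain named for a green fluorescent protein reporter at the interferon-inducible gene Mx1, which vehicle and treated mice alike carried. There were 3 mice that received phosphate-buffered saline as vehicle and 3 that received a single intraperitoneal dose of doxorubicin, an anthracycline that poisons topoisomerase II and is toxic to the heart. The dose was 25 mg per kg body weight in an injection of 100 microlitres, and hearts were taken 48 hours later. Myocytes were freed from the ventricles with collagenase and settled by gravity without sorting, and neither sex nor age is given in the labels. Each value is a normalized read count of a gene, in the form in which the authors deposited it. An estimated 7710000 to 11400000 reads lay behind a vehicle library and 3660000 to 6170000 behind a doxorubicin library.

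The doxorubicin libraries differed widely from each other. Across tested genes, which are not independent replicates, the Spearman coefficient with a vehicle library was 0.977 to 0.982 for doxorubicin replicate 1, 0.896 to 0.914 for replicate 2 and 0.86 to 0.876 for replicate 3. The defining cardiomyocyte markers were abundant in every library, although the summed level of the 15 markers, such as Myh6, Tnnt2 and Atp2a2, was 955170 to 1098700 with vehicle and 808620, 296050 and 240170 in doxorubicin replicates 1 to 3. The summed level of 10 macrophage markers was 2281 to 2441.5 with vehicle and 3720, 6025 and 14421 in doxorubicin replicates 1 to 3. The sums of 8 fibroblast markers were 6236 to 8274.5 and 8639, 22816 and 16406, of which Dcn alone held 2446 to 2905 and 3113, 18072 and 11326. The other 7 fibroblast markers summed to 3725 to 5369 and to 5526, 4744 and 5080, values that overlap. The sums of 8 endothelial markers were 13112 to 16872 and 21873, 20433 and 26390. The 6 neutrophil markers summed to 10.5 to 21.7 and to 55.0, 562 and 417, with Retnlg at 0 in every vehicle library, while the 8 lymphocyte markers stayed at or below 88.1 in every library. The sum of the 8 mural markers overlapped between the groups, at 9861 to 14629 and 11321, 12486 and 13327, but its members differed. Rgs5 had 4333 to 7807 and 5270.2, 9595 and 9346, while Acta2 had 735 to 1874.5 and 1451, 189.8 and 724. Hba-a1, an alpha globin of red cells, had 1081, 1961 and 1074 with vehicle and 8218.5, 244 and 415 in doxorubicin replicates 1 to 3, so doxorubicin replicate 1 was the highest library for it. The 5 atrial markers summed to 456 to 526 and to 1431, 368 and 708. In RNA from pooled cells, fewer cardiomyocytes and less of a transcript per cardiomyocyte cannot be told apart, and the part of these markers in the results below was not tested. Xist and the Y-linked transcripts divided the libraries across treatment, with vehicle replicate 3 and doxorubicin replicates 1 and 3 in the class with Xist.

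Most members were lower after doxorubicin, by a median of -0.76 on the log2 scale, against -0.0046 over all genes tested. Of the 40 members, 33 had a lower and 7 a higher mean log2 level after doxorubicin, against 50.4% and 49.6% of all genes tested, and the differences ran from -1.51 for Fhl2 to 1.60 for Pdlim3. Every doxorubicin value lay below every vehicle value in 24 members, against 22.6% of all genes tested, and above every vehicle value in 2, against 19.2%. When each library was scaled to the same total, these numbers became 15 and 7, beside 10.1% lower and 36.7% higher among all genes, and that scaling moved the median of all genes to 0.29 and that of the members to -0.46. With quantile normalization they were 10 and 4, beside 21.6% and 17.9%, and the members' median was -0.40. Each of these scalings left 32 members lower and made the difference of 16 of them smaller by over 1.5 times, as given below for quantile normalization. The 2 members above every vehicle value became 4 when either vehicle replicate 1 or doxorubicin replicate 2 was left out.

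No single member passed the test with all 6 libraries. Limma called 0 of the 40 at a Benjamini-Hochberg adjusted p under 0.05 over all genes tested, as it called 0 genes in all (0% higher and 0% lower), and the smallest adjusted p of a member was 0.0859. Members with an unadjusted p under 0.05 numbered 21 lower, against 19.3% of all genes, and 2 higher, Lims2 and Pdlim3, against 16.7%. Doxorubicin replicate 1, the library nearest to the vehicle libraries, decided the number called. Without it limma called 24 members lower and 2 higher, against 21.8% lower and 19.3% higher among all genes, and the members' median difference was -0.97. In 30 members the remaining doxorubicin libraries then lay below every vehicle library and in 3 above, beside 32.9% and 31.6% of all genes. With any other library left out, limma called 0 members. Without doxorubicin replicate 3 the median was -0.53. Within the class with Xist the median was -0.87 and within the class with Y-linked transcripts -0.61, each without a test because a class holds 1 library of either the vehicle or the doxorubicin group.

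**Figure D1:**
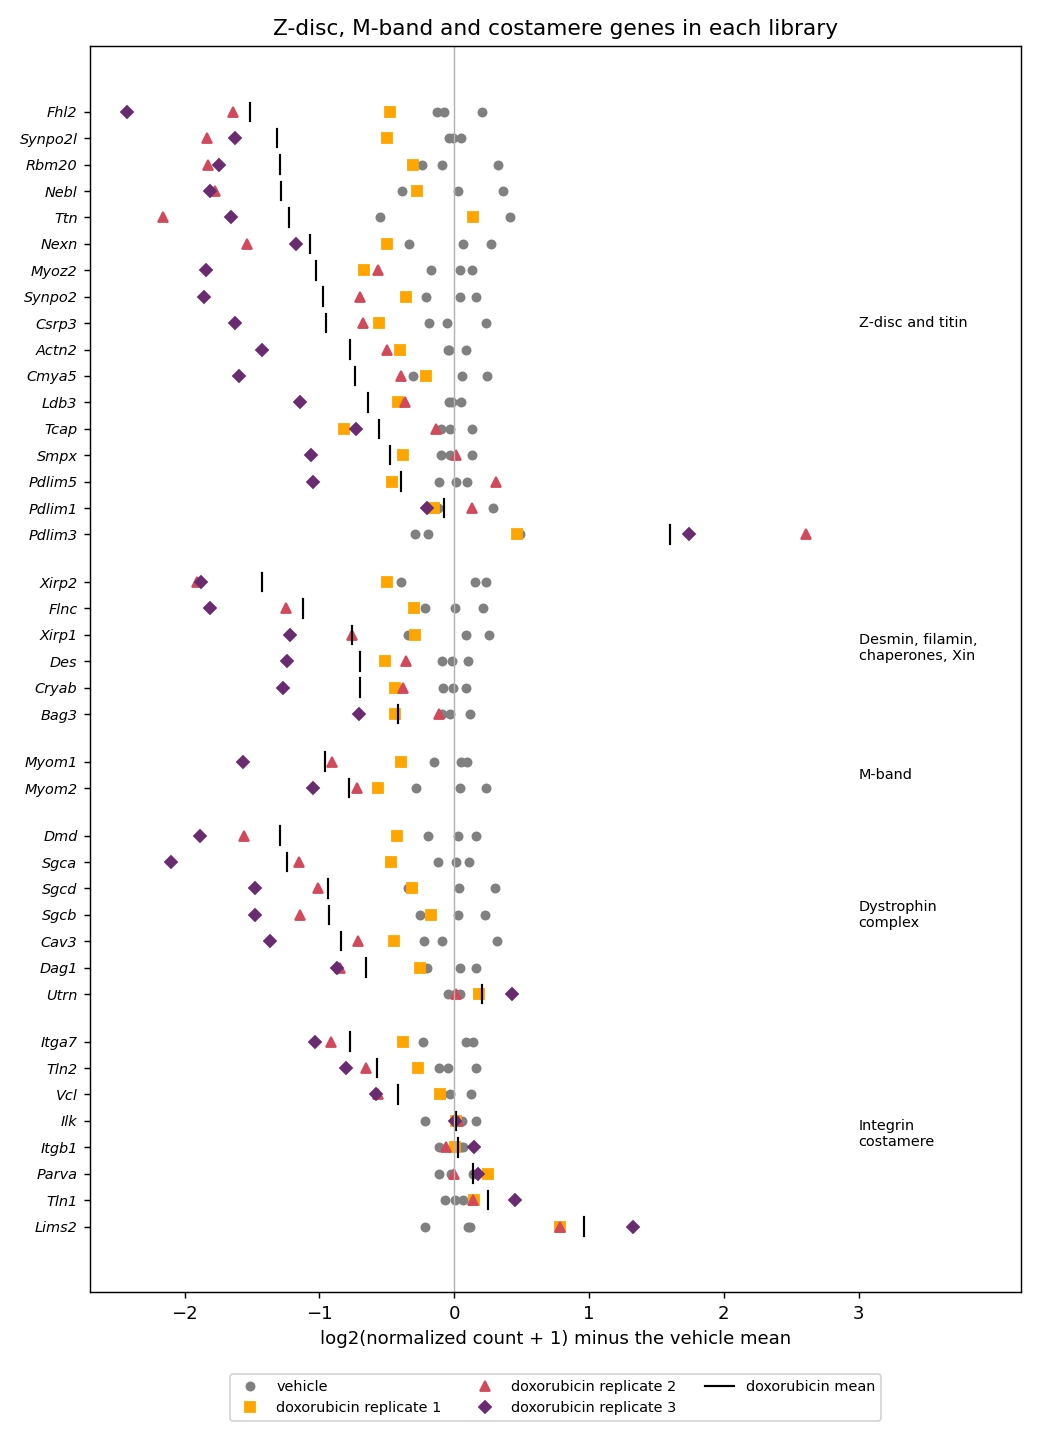
Each row is a member and each point a library, placed by its log2(normalized count + 1) minus the vehicle mean of that gene; grey circles are the 3 vehicle libraries, coloured symbols the 3 doxorubicin libraries and black ticks the doxorubicin mean. Doxorubicin replicate 1 lies within -0.82 to 0.78 of the vehicle mean in every row, replicates 2 and 3 lie farther to the left in most rows, and Pdlim3 and Lims2 lie to the right.

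The size of the difference varied between the doxorubicin libraries. The members' medians against the vehicle mean were -0.37, -0.66 and -1.23 in replicates 1, 2 and 3, while over all tested genes they were -0.015, 0.0023 and -0.0058. Replicate 1 lay below every vehicle library in 26 members, replicate 2 in 30 and replicate 3 in 33. Of the 12477 genes tested, 4310, 5030 and 5370 did so in the same libraries. The cardiomyocyte markers had medians of -0.44, -1.78 and -2.21 in the same libraries. In replicate 1 the members and the markers were thus lower by similar amounts, and in replicates 2 and 3 the members were lower by less. In replicate 2, 36 of the 40 members kept a higher relative level than the median marker, the 4 others being Ttn, Synpo2l, Rbm20 and Xirp2. In replicate 3, 39 did, the exception being Fhl2. The members summed to 20.8 to 21.8 normalized counts per 100 of the marker sum with vehicle, and to 21.3, 45.6 and 37.9 in doxorubicin replicates 1 to 3. Their share of the library total was 2.83% to 3.06% with vehicle and 2.65%, 2.22% and 1.68% in doxorubicin replicates 1 to 3.

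**Figure D2:**
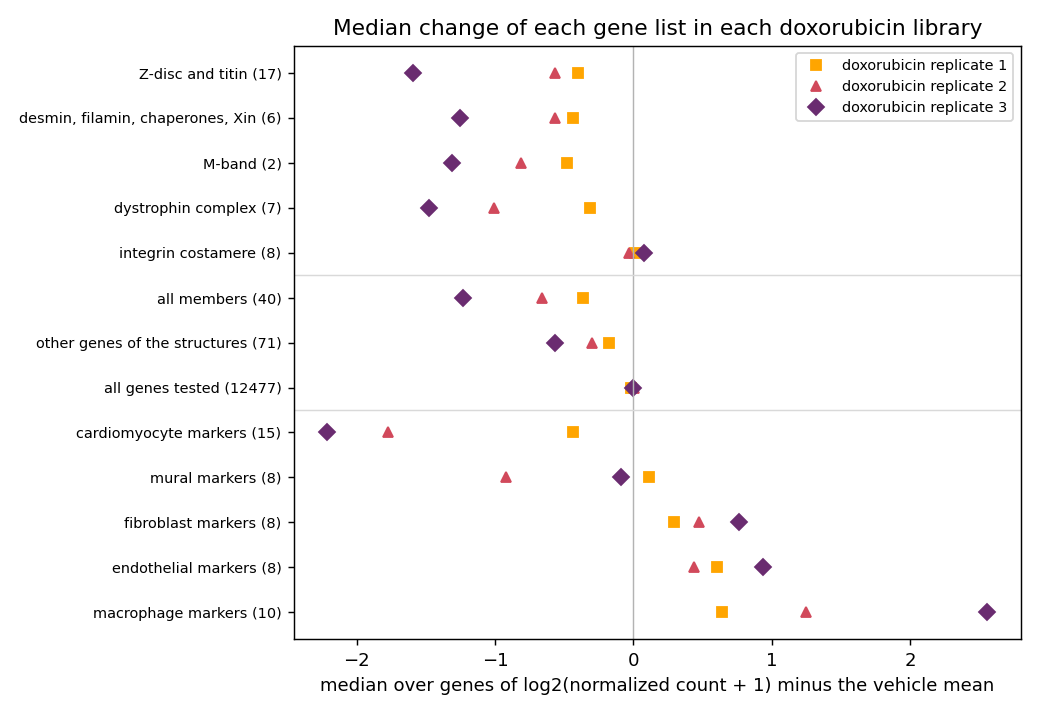
Points give the median, over the tested genes of a list (number in parentheses), of log2(normalized count + 1) minus the vehicle mean in each doxorubicin library. The structural groups apart from the integrin costamere and the cardiomyocyte markers lie left of 0, with the markers at -2.21 in doxorubicin replicate 3 against -1.23 for the members, and the macrophage markers reach 2.56.

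Some members carried sequence motifs of muscle transcription factors near a start. RefSeq's promoter table, built on GRCm38.p6 (mm10), held start windows for 30 of the 40 members. It held none for Cryab, Itga7, Lims2, Myom2, Nexn, Parva, Rbm20, Tcap, Tln2 and Xirp1. The 250 bases before each start were searched on both strands for 5 patterns, chosen after the values were seen. The 2 that departed most from the background are given first. They are the CArG box bound by serum response factor and the MEF2 site, and the AT-rich MEF2 pattern can also match a TATA box. A CArG box was found before a start of 6 of the 30 genes (20.0%), namely Dmd, Fhl2, Ldb3, Myom1, Nebl and Vcl, against 1.45% of the 9805 tested genes with a window. A MEF2 site was found in 7 (23.3%), namely Dmd, Fhl2, Myoz2, Synpo2, Synpo2l, Ttn and Xirp2, against 2.2%. By window, 19.0% of the 42 windows of members held a CArG box and 19.0% a MEF2 site, against 1.47% and 2.92% of all 32851 windows. The windows of Ldb3 with a match overlap and share the same CArG box, at 35 and 109 bases before their starts, so the windows are not all separate matches. The other 3 patterns searched were nearer the background by gene. CATTCC, bound by TEAD factors, was in 20.0% against 13.0%, AGATAA, bound by GATA factors, in 16.7% against 7.11%, and CAGCTG, an E-box, in 16.7% against 14.5%. The 11 members with a CArG box or MEF2 site had log2 differences from -1.51 to -0.42 with a median of -1.22. The 19 with neither had differences from -1.24 to 1.60 with a median of -0.66, and these ranges overlap. A match is a run of letters and not a measured binding site. The background is all tested genes and not muscle genes alone, and whether the motifs bear on the differences was not tested.

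The windows below are those of Fhl2 and Dmd, which hold both motifs, Xirp2 and Synpo2l, with a MEF2 site, and Nebl, with a CArG box. The last window is that of Pdlim3, the member with the largest higher value and 1 of the 19 members with neither motif. Each is the 250 bases before a start, read 5′ to 3′ on the strand of the gene, with CArG and MEF2 matches in capitals.
Fhl2 (chr1:43196762-43197011, - strand): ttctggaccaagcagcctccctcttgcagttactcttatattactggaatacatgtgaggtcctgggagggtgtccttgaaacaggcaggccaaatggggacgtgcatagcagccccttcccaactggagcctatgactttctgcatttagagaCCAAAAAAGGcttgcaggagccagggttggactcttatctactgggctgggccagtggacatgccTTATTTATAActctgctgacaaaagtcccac
Dmd (chrX:82948620-82948869, + strand): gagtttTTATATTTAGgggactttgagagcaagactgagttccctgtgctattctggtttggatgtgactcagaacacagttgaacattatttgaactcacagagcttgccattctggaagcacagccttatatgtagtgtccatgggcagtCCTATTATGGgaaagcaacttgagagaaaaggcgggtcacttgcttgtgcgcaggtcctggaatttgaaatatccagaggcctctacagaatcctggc
Xirp2 (chr2:67445752-67446001, + strand): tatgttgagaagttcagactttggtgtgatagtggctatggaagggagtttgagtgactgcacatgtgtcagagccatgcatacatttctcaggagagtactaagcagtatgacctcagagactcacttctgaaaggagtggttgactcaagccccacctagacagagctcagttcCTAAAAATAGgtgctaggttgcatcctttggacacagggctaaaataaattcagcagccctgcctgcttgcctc
Synpo2l (chr14:20664575-20664824, - strand): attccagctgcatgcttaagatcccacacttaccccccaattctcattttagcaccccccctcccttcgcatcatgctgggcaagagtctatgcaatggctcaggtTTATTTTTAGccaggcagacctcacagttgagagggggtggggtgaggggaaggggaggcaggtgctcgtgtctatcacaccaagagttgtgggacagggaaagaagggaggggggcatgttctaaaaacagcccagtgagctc
Nebl (chr2:17462857-17463106, - strand): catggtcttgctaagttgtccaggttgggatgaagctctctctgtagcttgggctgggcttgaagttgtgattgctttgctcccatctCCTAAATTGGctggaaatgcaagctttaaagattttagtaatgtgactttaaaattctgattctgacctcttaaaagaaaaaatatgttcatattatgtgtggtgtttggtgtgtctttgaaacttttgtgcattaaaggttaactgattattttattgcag
Pdlim3 (chr8:45885237-45885486, + strand): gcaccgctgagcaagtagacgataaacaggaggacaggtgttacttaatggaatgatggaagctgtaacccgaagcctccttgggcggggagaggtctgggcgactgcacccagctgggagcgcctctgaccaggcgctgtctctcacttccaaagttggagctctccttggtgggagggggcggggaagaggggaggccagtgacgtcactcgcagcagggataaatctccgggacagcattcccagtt
In Fhl2 the CArG box begins 96 bases and the MEF2 pattern 31 bases before this start, the latter at the usual distance of a TATA box. In Dmd the CArG box begins 98 bases before the start. Where a gene had several starts in the table, as Fhl2, Dmd, Synpo2l and Nebl did, the window with the most CArG and MEF2 matches is shown. The windows of Synpo2l tied, as the other held the MEF2 match CTATAATTAG, and the window with the lower coordinate is shown.

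Among the Z-disc and titin genes, 16 of 17 were lower and the median log2 difference was -0.95. All doxorubicin values lay below all vehicle values in 10 of them, against 22.6% of all genes tested. That number was 7 with equal library totals (10.1% of all genes) and 5 with quantile normalization (21.6%). The median was -0.49 with quantile normalization and -0.53 without doxorubicin replicate 3. Fhl2 (chromosome 1, 43123071 to 43198343), a LIM-domain protein that binds titin and relays signals from the Z-disc, differed most. It had 17122, 14095 and 13564 normalized counts with vehicle and 10670, 4769 and 2755 with doxorubicin, each in the order of replicates 1 to 3, as for every gene below. All 3 doxorubicin values lay below the vehicle values, and the log2 difference was -1.51 (SE 0.47, limma adjusted p 0.0863). It was -2.03 without doxorubicin replicate 1 (adjusted p 0.00146), in the fit that called 21.8% of all genes lower. Synpo2l, which encodes an actin-associated protein of the Z-disc, had 1328.5, 1305 and 1387 with vehicle and 949, 376 and 434 after doxorubicin. Its vehicle values were close together and its groups did not overlap, with a log2 difference of -1.32 (SE 0.33, limma adjusted p 0.0859). Its relative Synpo2, or myopodin, an actin-bundling protein, had 1058.5, 1260 and 1371 against 956, 751 and 336.5, a difference of -0.97 (SE 0.36, adjusted p 0.107) that was -0.53 without doxorubicin replicate 3. Doxorubicin replicate 3 was the lowest for Synpo2 and replicate 2 for Synpo2l.

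Titin itself was lower in only 2 of the 3 doxorubicin libraries. Ttn (chromosome 2, 76703980 to 76982557) had 16754, 32777 and 26925 normalized counts with vehicle and 26974, 5500 and 7809 in doxorubicin replicates 1 to 3. Replicate 1 lay among the vehicle values, and replicates 2 and 3 held 21.6% and 30.6% of the vehicle mean. The log2 difference of -1.22 (SE 0.61, limma adjusted p 0.187) was -0.76 without doxorubicin replicate 2 and -0.74 with quantile normalization. It was -1.90 without doxorubicin replicate 1 (adjusted p 0.00471), in the fit that called 21.8% of all genes lower. The vehicle libraries were already spread widely, at 25485 ± 8108 (SD, n = 3). Rbm20, the splicing factor that sets which titin exons are kept, had 1459, 1614 and 2158.5 with vehicle and 1394, 484 and 513 after doxorubicin. Its groups did not overlap, though replicate 1 lay just under the lowest vehicle value, and the difference was -1.29 (SE 0.40, limma adjusted p 0.0863).

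Other actin-binding parts of the Z-disc were also lowest in doxorubicin replicates 2 and 3. Nebl, which encodes the cardiac nebulin relative nebulette, had 2385, 3176 and 4005 against 2579, 913 and 889, and its groups overlapped through doxorubicin replicate 1 (log2 difference -1.29, SE 0.43, limma adjusted p 0.0891). Nexn, which encodes the actin-binding protein nexilin, had 3234, 4262 and 4932 against 2896, 1407 and 1806 without overlap (-1.07, SE 0.30, adjusted p 0.0859). In Nebl, Nexn, Rbm20 and Ttn vehicle replicate 1 was the lowest vehicle library, as it was in 23 of the 40 members.

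Among the core cross-linkers and the small Z-disc proteins, doxorubicin replicate 3 held the lowest value of Actn2, Myoz2, Csrp3, Cmya5 and Smpx. Actn2 (chromosome 13, 12269426 to 12340732), sarcomeric alpha-actinin, had 15964, 15835 and 17385 with vehicle and 12402, 11582 and 6087 after doxorubicin. The groups did not overlap, and replicate 3 stood apart from the other doxorubicin libraries. The log2 difference of -0.78 (SE 0.35, limma adjusted p 0.15) became -0.45 without that library and -0.25 with quantile normalization. Myoz2, or calsarcin-1, which tethers the phosphatase calcineurin to alpha-actinin, had 9595, 9013 and 7753 against 5517.5, 5921 and 2437, a difference of -1.02 (SE 0.36, adjusted p 0.0992) and of -0.61 both without doxorubicin replicate 3 and with quantile normalization. Csrp3, the muscle LIM protein, had 11606, 9504 and 8657 against 6698, 6176 and 3197 (-0.95, SE 0.33, adjusted p 0.0973, -0.61 without replicate 3 and -0.49 with quantile normalization). Tcap, or telethonin, which caps the titin amino terminus, had its lowest value in another library. Its values were 9272, 8261 and 7879 with vehicle and 4790, 7707 and 5102 in doxorubicin replicates 1 to 3, a difference of -0.56 (SE 0.26, adjusted p 0.165) that shrank to -0.09 under quantile normalization. Cmya5, or myospryn, which binds desmin and alpha-actinin, had a difference of -0.73 (adjusted p 0.22, -0.30 without replicate 3 and -0.27 with quantile normalization), and Smpx, a small muscle protein, one of -0.48 (adjusted p 0.238, -0.72 without replicate 2, -0.18 without replicate 3 and -0.28 with quantile normalization); the groups of both overlapped.

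The PDZ and LIM domain proteins, adaptors that bind alpha-actinin, had no common direction, and none of the 4 passed the test with all libraries. Pdlim3 (chromosome 8, 45885487 to 45919635), the actinin-associated LIM protein, was the least abundant member, with 118, 73.5 and 68.5 normalized counts in the vehicle libraries. It had 117, 518 and 283 in doxorubicin replicates 1 to 3. Replicates 2 and 3 lay far above every vehicle library, and replicate 1 lay just under the highest vehicle value, so the groups overlapped. The log2 difference was 1.60 (SE 0.50, limma adjusted p 0.0864). Without doxorubicin replicate 1 it was 2.17 (adjusted p 0.00151), in the fit that called 19.3% of all genes higher. With any other library left out, the adjusted p of Pdlim3 was 0.168 to 0.258. Pdlim1, of the same subfamily, had 704, 532 and 514 against 521, 632 and 501, a difference of -0.08 (SE 0.18, adjusted p 0.782) that was 0.23 with equal library totals and -0.02 with quantile normalization and ran from -0.18 to 0.068 when 1 library was left out. Ldb3, or Cypher, had 9848, 9246 and 9391 against 7102, 7359 and 4305 without overlap (-0.64, SE 0.28, adjusted p 0.142, -0.39 without replicate 3 and -0.12 with quantile normalization). Pdlim5, or ENH, had 6927, 5997.5 and 6521 against 4710, 8038 and 3139. Its doxorubicin libraries held both its highest and its lowest value, and the difference of -0.40 (SE 0.35, adjusted p 0.429) was 0.05 under quantile normalization -0.75 without doxorubicin replicate 2 and -0.07 without replicate 3.

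The intermediate filament, filamin, Xin and chaperone genes were lower in 6 of 6, with a median log2 difference of -0.73, and 5 of them had groups without overlap, against 22.6% of all genes tested. With equal library totals 2 were lower without overlap, beside 10.1% of all genes, and with quantile normalization 0, beside 21.6%. The medians under these scalings were -0.43 and -0.37, while the median was -0.48 without doxorubicin replicate 3. Xirp2 (chromosome 2, 67446000 to 67526620), which encodes an actin-binding Xin-repeat protein, had 4756, 6933 and 7357 with vehicle and 4415, 1665 and 1698.5 after doxorubicin. Replicates 2 and 3 were nearly equal and far below the rest, and the difference was -1.43 (SE 0.40, limma adjusted p 0.0859). Xirp1, the other Xin-repeat gene, had 2208, 3348.5 and 2976 against 2296, 1654 and 1202.5, and its groups overlapped (-0.76, SE 0.28, adjusted p 0.105). Flnc, or filamin C, the muscle actin cross-linker, had 2667, 3118 and 3604.5 against 2531, 1309 and 884 without overlap (-1.12, SE 0.37, adjusted p 0.0884). Des, the intermediate filament protein desmin that links Z-discs to each other, had 15720, 16582 and 17963 against 11739, 13090 and 7087. Its groups did not overlap, and its difference of -0.70 (SE 0.33, adjusted p 0.162) was -0.43 without doxorubicin replicate 3 and -0.22 with quantile normalization. Cryab, the small heat shock protein that protects desmin, had 14971, 13272 and 13987 against 10347, 10828 and 5821, also without overlap (-0.70, SE 0.32, adjusted p 0.159, -0.41 without replicate 3 and -0.21 with quantile normalization). Cryab overlaps Hspb2 and another gene in the annotation, whose mean levels were 4.15% and 0.356% of its own. Bag3, the co-chaperone that clears damaged filamin, had 2359, 2729 and 2456.5 against 1854, 2319 and 1542, the smallest difference of the group at -0.42 (SE 0.20, adjusted p 0.169), -0.28 without doxorubicin replicate 3 and -0.19 with quantile normalization.

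Both M-band genes were lower, with no overlap between the groups except under quantile normalization, where Myom1 differed by -0.44 and Myom2 by -0.27. Of all genes tested, 22.6% were lower without overlap, or 10.1% with equal library totals. Myom1, or myomesin-1, which cross-links titin and myosin at the midline, had 12892, 14851 and 15320 with vehicle and 10877, 7654 and 4838 after doxorubicin (-0.95, SE 0.34, limma adjusted p 0.102). Myom2, the M-protein, had 8585, 10760 and 12313 against 7049, 6333.5 and 5039 (-0.78, SE 0.26, adjusted p 0.0912). Doxorubicin replicate 3 was the lowest library for both. Without doxorubicin replicate 1, limma called both lower, with adjusted p of 0.00975 for Myom1 and 0.0248 for Myom2. That fit, without the doxorubicin library nearest to vehicle, called 21.8% of all genes lower.

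In the dystrophin-glycoprotein complex, 6 of 7 genes were lower, with a median log2 difference of -0.93, and the groups of 4 did not overlap, against 22.6% of all genes tested. With equal library totals 3 were lower and 1 higher without overlap, beside 10.1% and 36.7% of all genes. With quantile normalization 3 were again lower and 1 higher, beside 21.6% and 17.9%. Dmd (chromosome X, 82814664 to 85205050), the dystrophin gene, whose protein ties actin to the membrane complex, had 1227, 1566 and 1431 normalized counts with vehicle and 1043, 475 and 379 after doxorubicin. The groups did not overlap, and the difference was -1.29 (SE 0.35, limma adjusted p 0.0859). It was -1.72 without doxorubicin replicate 1 (adjusted p 0.000381), in the fit that called 21.8% of all genes lower. Utrn, which encodes utrophin, the widely expressed relative of dystrophin, had 1182, 1256 and 1223 against 1383, 1233 and 1644. Its groups overlapped and it differed by 0.21 (SE 0.16, adjusted p 0.372), or by 0.10 without doxorubicin replicate 3. Utrn was the gene higher without overlap under the other scalings, by 0.51 with equal library totals and 0.39 with quantile normalization. Sgca, or alpha-sarcoglycan, had 853, 937 and 1003 against 672, 418 and 216 without overlap (-1.24, SE 0.37, adjusted p 0.0859), and its difference was -0.81 without doxorubicin replicate 3. The sarcoglycans Sgcb and Sgcd, which stabilise dystroglycan in the same membrane complex, had close differences of -0.93 (adjusted p 0.0988) and -0.93 (adjusted p 0.0899), and in both genes replicate 1 overlapped the vehicle libraries. Dag1, whose protein is cleaved into the dystroglycans that bind laminin and dystrophin, had 3712, 4396 and 4786 against 3578.5, 2381 and 2337. It did not overlap and was among the less affected parts of the complex (-0.66, SE 0.23, adjusted p 0.0999, and -0.36 with quantile normalization). Cav3, the muscle caveolin, had 596, 448 and 408 against 349.5, 291 and 185 (-0.84, SE 0.26, adjusted p 0.0863).

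The integrin costamere held genes on both sides. Of its 8 genes 3 were lower, all without overlap, against 22.6% of all genes tested, and 5 were higher, of which 2 had groups without overlap, against 19.2%. With equal library totals 1 was lower and 5 higher without overlap, beside 10.1% and 36.7% of all genes. With quantile normalization 2 were lower and 3 higher, beside 21.6% and 17.9%. No test sets these counts apart from those shares, and the median log2 difference was 0.02, or -0.01 without vehicle replicate 3 and -0.0039 without doxorubicin replicate 3. Itga7, the muscle laminin receptor subunit, had 1206, 1505 and 1561 with vehicle and 1089.9, 750.1 and 692 after doxorubicin (-0.77, SE 0.21, limma adjusted p 0.0859). Its partner Itgb1, the beta subunit that most cell types use, had 3482, 3904 and 3938 against 3777, 3616 and 4181. These values overlapped and the difference was 0.03 (SE 0.18, adjusted p 0.915), with values of -0.028 to 0.076 when 1 library was left out. Tln2, the talin of muscle costameres, had 1051, 1102 and 1271 against 943, 724 and 652 without overlap (-0.57, SE 0.18, adjusted p 0.0874). Tln1, the talin of most other cells, had 2063.5, 2140.1 and 1951 against 2272, 2261 and 2807. All 3 doxorubicin values lay above the vehicle values, and the difference was 0.25 (SE 0.17, adjusted p 0.315), or 0.14 without doxorubicin replicate 3. Vcl, or vinculin, which binds talin to actin, had 1430.3, 1492 and 1666 against 1416.5, 1029 and 1019, without overlap by a narrow margin in replicate 1 (-0.42, SE 0.18, adjusted p 0.142, and -0.25 with quantile normalization). It overlaps Ap3m1, whose mean level was 27.9% of its own, so reads of both may be mixed.

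The complex of integrin-linked kinase, PINCH and parvin, which sits on the integrin tail, held the clearest opposite case. Lims2, or PINCH2, its LIM-domain adaptor, had 865.5, 859 and 687 normalized counts with vehicle and 1377, 1374 and 2000.3 after doxorubicin. Every doxorubicin library exceeded every vehicle library, replicate 1 included, and the difference was 0.96 (SE 0.20, limma adjusted p 0.0859) with all libraries. It was 1.05 without doxorubicin replicate 1 (adjusted p 0.00511), in the fit that called 19.3% of all genes higher. Gpr17, which overlaps Lims2 in the annotation, was at 0 in both groups. The summed endothelial markers also exceeded every vehicle library, at 21873, 20433 and 26390 against 13112 to 16872, while the mural sums overlapped. Whether Lims2 followed a change in the mix of cells was not tested. As deposited, the partners of Lims2 did not differ beyond the spread of their replicates. With equal library totals, where the median of all genes was 0.29, Ilk differed by 0.32 and Parva by 0.44. Neither then overlapped, and Lims2 differed by 1.26. With quantile normalization the differences were 0.13 for Ilk, 0.21 for Parva and 1.13 for Lims2. Ilk had 889, 827 and 685 against 804, 809.8 and 798.5 (0.02, SE 0.15, adjusted p 0.952, from -0.092 to 0.095 when 1 library was left out), and its levels are uncertain because it overlaps Taf10 and Rrp8, whose mean levels were 47.5% and 11.7% of its own. Parva had 568, 476 and 508 against 614, 516 and 582 (0.14, SE 0.15, adjusted p 0.502). Without doxorubicin replicate 1 the difference of Parva was 0.09.

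Several structures pair a muscle form with a more widely expressed relative. The ratio of such genes within a library does not depend on a factor common to that library, but quantile normalization can change it. With that normalization Actn2 differed by -0.25 and Actn1 by 0.79, against -0.78 and 0.75 as deposited. For 10 pairs the log2 ratio was compared between groups by an exact two-sided permutation test, which with 3 libraries against 3 cannot give a p below 0.1, or 0.1429 after Benjamini-Hochberg adjustment here. The log2 ratio of Dmd to Utrn was 0.20 ± 0.13 with vehicle and -1.30 ± 0.86 after doxorubicin (SD, n = 3 each, exact p 0.1). Its values after doxorubicin were -0.41, -1.37 and -2.11, and no value overlapped the vehicle range. The ratio of Tln2 to Tln1 went from -0.85 ± 0.20 to -1.67 ± 0.42 and that of Actn2 to the non-muscle alpha-actinin Actn1 from 5.76 ± 0.16 to 4.24 ± 1.09. Flnc to Flna went from 1.21 ± 0.52 to -0.44 ± 1.03. In these 4 pairs the muscle form had a lower ratio in every doxorubicin library than in any vehicle library, and each pair had an exact p of 0.1. The cardiomyocyte markers were lower in the same libraries, summing to 808620, 296050 and 240170 against 955170 to 1098700 with vehicle. Such ratios can change with the mix of cells in a library, and that part was not tested. Without doxorubicin replicate 3 the difference for Actn2 to Actn1 was -0.999, against -1.53 with all libraries.

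The pair of PINCH genes went the other way. The log2 ratio of Lims2 to Lims1, or PINCH1, was -0.59, -0.68 and -0.97 with vehicle and 0.25, 0.51 and 0.99 after doxorubicin (difference 1.33, exact p 0.1). By counts, Lims1 was thus the higher gene in every vehicle library and Lims2 in every doxorubicin library. Counts also depend on transcript length. Per kilobase of the longest coding transcript, the vehicle mean was already higher for Lims2, at 430 against 310 for Lims1. Lims1 itself differed by -0.37 (limma adjusted p 0.118). The ratio of Pdlim3 to Pdlim1 went from -2.76 ± 0.18 to -1.09 ± 0.96 (exact p 0.1) and that of Xirp1 to Xirp2 from -1.15 ± 0.13 to -0.48 ± 0.47 (exact p 0.1), both without overlap. The difference for Xirp1 to Xirp2 was 0.67, and 0.43 without doxorubicin replicate 2. In the other pairs the groups overlapped, and the exact p was 0.5 for Myom1 to Myom2, 0.6 for Synpo2 to Synpo2l and 0.4 for Ldb3 to Pdlim5, with differences of -0.18, 0.35 and -0.25. That of Synpo2 to Synpo2l ran from -0.046 to 0.64 when 1 library was left out. That of Myom1 to Myom2 was -0.35 without doxorubicin replicate 1 and -0.0061 without replicate 3, and that of Ldb3 to Pdlim5 -0.39 without replicate 1 and -0.029 without replicate 2.

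**Figure D3:**
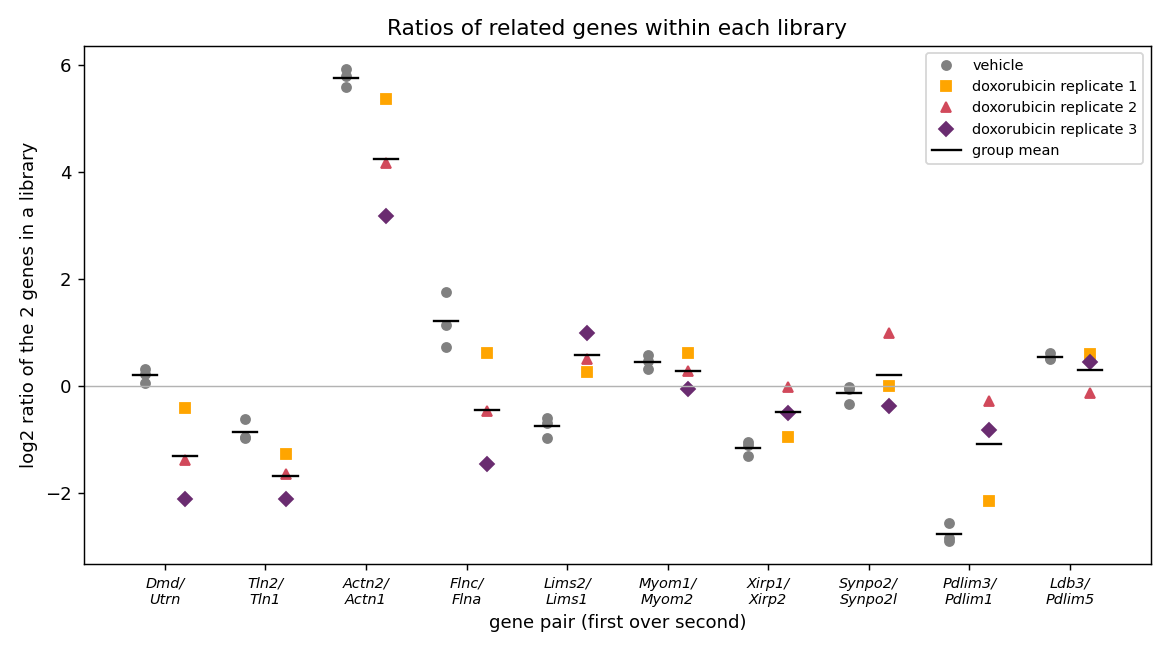
Each point is the log2 ratio of the normalized counts of 2 related genes in 1 library, with grey circles for vehicle, coloured symbols for doxorubicin and black lines for the group means. Dmd over Utrn, Tln2 over Tln1, Actn2 over Actn1 and Flnc over Flna are lower in all 3 doxorubicin libraries, Lims2 over Lims1 is higher in all 3, and the last pair, Ldb3 over Pdlim5, overlaps.

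Doxorubicin replicates 2 and 3 did not lower the members in the same proportions. In 12 members both libraries held less than 50% of the vehicle mean, namely Ttn, Nebl, Nexn, Synpo2l, Fhl2, Rbm20, Flnc, Xirp2, Dmd, Sgca, Sgcb and Sgcd. In 15 others only replicate 3 did, while replicate 2 held 52.7% to 124% of the vehicle mean. These were Actn2, Ldb3, Csrp3, Myoz2, Pdlim5, Synpo2, Smpx, Cmya5, Cryab, Des, Xirp1, Myom1, Myom2, Cav3 and Itga7. No member (0) was below 50% in replicate 2 only or in replicate 1. Another 5 members, Tcap, Bag3, Dag1, Tln2 and Vcl, held 54.4% to 92.2% in both libraries. Replicate 2 exceeded replicate 3 in 30 members, with a median log2 gap of 0.40, against 0.025 over all genes tested. These divisions were drawn after the values were seen and are given without a test.

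**Figure D4:**
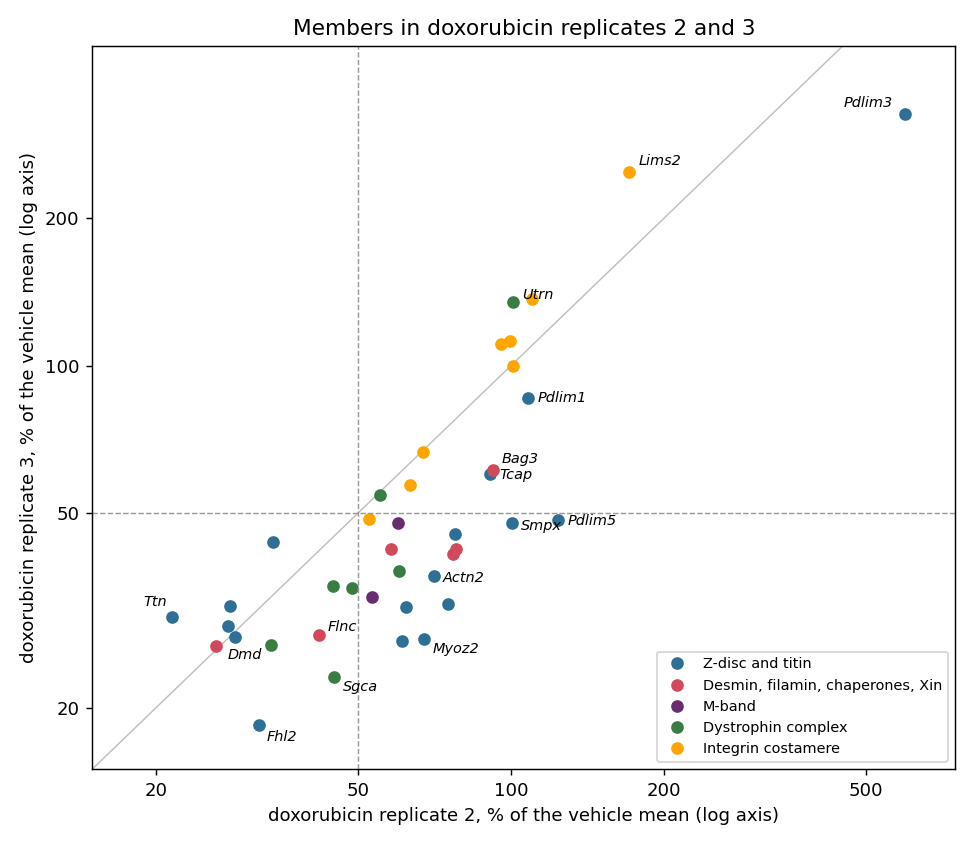
Each point is a member, placed by its level in doxorubicin replicate 2 (horizontal) and replicate 3 (vertical) as a percentage of the vehicle mean on log axes, coloured by structure; dashed lines mark 50% and the grey line equal values. Points to the lower right of the grey line, such as Pdlim5 at 124% in replicate 2, were lower in replicate 3, and 12 members lie below 50% in both.

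Per length of transcript the members differed widely in the vehicle libraries. Values were divided by the longest coding transcript of each gene in GENCODE M21, which need not be the one the heart uses. Small Z-disc proteins had the highest levels, with 12602 normalized counts per kilobase for Cryab, 11037 for Csrp3, 9550.3 for Fhl2, 8935.5 for Tcap and 7440.2 for Myoz2. Des and Actn2 had 5533 and 5441 per kilobase. Ttn, the member with the highest count, had 239 per kilobase over a transcript of 106824 bases, near Tln1 at 244 and Pdlim1 at 227. Utrn, Dmd and Tln2 had 98.5, 94.4 and 94.1, and Pdlim3 had 54.1, the lowest. Transcript length also followed a difference between vehicle libraries. Across the 40 members, the Spearman coefficient between length and the log2 deviation from the vehicle mean was -0.63 in vehicle replicate 1, 0.44 in replicate 2 and 0.55 in replicate 3, and -0.31, 0.13 and 0.21 across 12076 tested genes. In doxorubicin replicates 1 to 3 it was 0.35, -0.29 and -0.12 among the members. The 3 vehicle deviations sum to 0 by construction, and these coefficients are descriptions.

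Further genes of the same structures, listed by function, were lower in 45 cases and higher in 26. Of 75 genes that had a row, 71 were tested, and limma called 0 of them (0%) with all 6 libraries, while at an unadjusted p under 0.05 there were 27 lower and 10 higher, beside 19.3% and 16.7% of all genes. The groups did not overlap in 29 lower and 8 higher genes, beside 22.6% and 19.2% of all genes tested. That split was 14 and 15 with equal library totals, beside 10.1% and 36.7% of all genes. With quantile normalization it was 19 and 11, beside 21.6% and 17.9%. The median log2 difference was -0.37, or -0.07 with equal library totals and -0.21 with quantile normalization. Without doxorubicin replicate 1 limma called 33 lower and 13 higher, beside 21.8% and 19.3% of all genes. The smallest unadjusted p among the lower ones with a mean of at least 100 belonged to Ankrd23, a titin-binding ankyrin-repeat protein (-1.43, SE 0.30, limma adjusted p 0.0859), to Itgb1bp2, or melusin, a muscle partner of Itgb1 (-1.14), to Mlip, a lamin-interacting protein of muscle (-1.37), and to Alpk3, a kinase-like protein of the sarcomere (-1.01). Ankrd23 had 5394, 4631 and 4561 with vehicle and 2907, 1458 and 1362 after doxorubicin, with a wide gap between the groups. Those on the higher side were Sgce, the widely expressed epsilon-sarcoglycan (0.87, adjusted p 0.0859), Pxn, the focal adhesion adaptor paxillin (0.85), Sntb2, a syntrophin (0.58), and Sptan1, the non-erythroid alpha-spectrin (0.65). Sgce had 146, 113 and 84.2 against 177, 219 and 221, next to the lower values of the muscle sarcoglycan Sgca.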

How the data were processed

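Cardiomyocyte RNA of 3 vehicle and 3 doxorubicin mice was compared, with groups and replicate numbers taken from the sample titles. Per the labels, reads were aligned with STAR (version 2.6.1a in the submitters' processing notes, which also name Salmon) to mm10 with RefSeq genes in BaseSpace applications. How strand was used and values normalized is not given in the sources used here. Values deposited by the authors are a signal, normalized read counts per gene that are never negative and not whole. Between 80.7% and 92.4% of low values lay within 0.1 step of a whole multiple of the most common low value, which gave the estimated reads. The remainder was too far from whole for a count test.

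Genes averaging at least 10 across the 6 libraries were tested on log2(value + 1) by limma 3.58.1 under R 4.3.3 (trended prior variance, two-sided, Benjamini-Hochberg over 12477 genes, threshold 0.05). The procedure was tried on simulated data with the same noise in every library. The doxorubicin libraries differed widely from each other, so that trial cannot show how the procedure behaves on them. Differences (doxorubicin minus vehicle) are on the log2(value + 1) scale, so those of low genes are understated. P-values measure the spread between these mice. Members, lists, pairs and alternatives were chosen with earlier results of these data known. Values in every library were to be given for the members with the 2 largest differences in each direction within a structure and for paired genes; further members were added. Of the other genes of these structures, the 4 lower and 4 higher with the smallest unadjusted p were named, given no overlap of the groups and a mean of 100 or more. Plots were made with matplotlib 3.10.9 (Python 3.11.15).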

Additional observations from a re-analysis of the deposited data

How the results depend on the processing

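The result that depended most on the processing was the number of genes called by limma. With library weights it was 1954 higher and 2318 lower over all genes and 2 higher and 23 lower among the members. Over the fits that leave out 1 library each, it ran from 0 to 2409 higher and 0 to 2718 lower over all genes and from 0 to 2 higher and 0 to 24 lower among the members, the highest values being those without doxorubicin replicate 1. Without doxorubicin replicate 2 there was 1 gene lower. Every other setting gave 0. Members with groups that do not overlap numbered 24 lower and 2 higher as deposited, beside 22.6% and 19.2% of all genes. When a library was left out they numbered 24 to 30 lower and 2 to 4 higher. With equal library totals they were 15 lower and 7 higher, beside 10.1% and 36.7% of all genes. With quantile normalization they were 10 lower and 4 higher, beside 21.6% and 17.9%. The median of the members stayed below 0 in every setting run, from -0.97 to -0.40. Signs turned for members with differences near 0 and for Pdlim5. Pdlim1 was 0.23 with equal library totals, 0.045 with library weights and 0.018 with the class covariate, and ran from -0.18 to 0.068 when a library was left out, above 0 without vehicle replicate 1. Pdlim5 was 0.049 with quantile normalization. Itgb1 was -0.017 with library weights and -0.0074 with the class covariate, and ran from -0.028 to 0.076 when a library was left out, below 0 without vehicle replicate 1 or doxorubicin replicate 3. Ilk ran from -0.092, without vehicle replicate 3, to 0.095, and the ratio of Synpo2 to Synpo2l from -0.046, without doxorubicin replicate 2, to 0.64. The cause of these changes was not tested. With a replicate block, 0 genes and 0 members were called and the median of the members was -0.76, as without it. The block could take no call away, because 0 genes were called without it. Same-numbered libraries deviated from their group means with correlations of -0.13, 0.03 and -0.09, and differently numbered ones with -0.18 to 0.22. With 3 libraries in a group these values cannot settle whether the numbers pair the mice. All doxorubicin libraries were shallower than the vehicle libraries, and depth and treatment cannot be told apart.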
